A study of Mus musculus with 4 samples.

Results

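Chemokines and inflammatory cytokines are the secreted proteins with which fibroblasts call in and feed leukocytes. The genes described here are the rows of the FPKM table named Ccl or Cxcl with a number, together with Cx3cl1, Il6, Il11, Il1a, Il1b, Il33, Il34, Lif, Csf1, Csf2, Csf3, Tnf, Tslp and Il1rn. They number 52 of 23924 rows, 39 for chemokines and 13 for cytokines. Of these, 19 had a mean of at least 0.5 FPKM (fragments per kilobase of transcript, scaled to the reads of the library) over the 4 libraries and were tested, 11 had reads but stayed below that level, and 22 were listed at 0 in every library.

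RNA was sequenced from tail tip fibroblasts (TTFs) of male mice, with 2 libraries per genotype. TG cells carried Tg2087/+, a BAC transgene with the X-inactivation center sequence, Xist included, inserted in an autosome. The line is kept on a C57BL/6J background, and the study linked the transgene to chromosome 1 by DNA FISH. WT cells (+/+) came from littermates without the transgene, born to crosses of Tg2087/+ with wildtype C57BL/6J. Cells of both genotypes were immortalized with SV40 large T and were tetraploid, so the controls shared that change. All were grown in medium with serum. Whether the 2 libraries of each genotype stem from different animals or cultures is not given in the sources used here, nor is the age. The p-values below therefore measure the spread between libraries, which may be technical. The table gives FPKM, and whole reads worked out from its steps put the libraries at 9465712 (WT 1), 14639946 (WT 2), 11923758 (TG 1) and 11063020 (TG 2) reads. *Xist* was listed at 0 and 0.108 FPKM in WT and at 2.31 and 2.28 FPKM in TG, so its level followed the labels.

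Chemokines are small proteins that guide migrating cells through G protein-coupled receptors. The CXC members with an ELR motif (Cxcl1, Cxcl2, Cxcl3, Cxcl5) attract neutrophils through Cxcr2, the interferon-induced CXC members attract activated T cells through Cxcr3, and many CC members attract monocytes, eosinophils or T cells. In fibroblasts, transcription of several of these genes is switched on by NF-κB and AP-1 downstream of IL-1 and TNF receptors, and their mRNAs are short-lived.

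The start-site windows of *Cxcl1*, *Cxcl2*, *Cxcl3* and *Cxcl10* are shown because they hold the NF-κB consensus, and because genes with the same match differed widely in their reads. They run from 250 bases before the annotated start to 50 bases after it, come from RefSeq on GRCm38.p6, and are written 5′ to 3′ on the strand of the gene with the consensus matches in capitals. They were chosen after the matches had been seen. The positions are chr5:90890995-90891294 (plus strand) for *Cxcl1*, chr5:90903649-90903948 (plus) for *Cxcl2*, chr5:90785851-90786150 (plus) for *Cxcl3* and chr5:92348840-92349139 (minus) for *Cxcl10*.
Cxcl1: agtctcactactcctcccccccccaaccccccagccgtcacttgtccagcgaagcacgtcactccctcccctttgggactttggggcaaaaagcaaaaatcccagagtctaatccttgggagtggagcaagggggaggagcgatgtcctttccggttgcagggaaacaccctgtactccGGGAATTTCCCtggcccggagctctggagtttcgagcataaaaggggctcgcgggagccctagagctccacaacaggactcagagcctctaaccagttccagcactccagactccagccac
Cxcl2: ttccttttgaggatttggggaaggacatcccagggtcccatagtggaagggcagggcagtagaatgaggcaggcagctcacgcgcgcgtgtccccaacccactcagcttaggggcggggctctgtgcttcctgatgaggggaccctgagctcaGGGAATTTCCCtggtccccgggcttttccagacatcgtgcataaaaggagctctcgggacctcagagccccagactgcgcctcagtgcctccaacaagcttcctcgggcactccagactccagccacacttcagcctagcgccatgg
Cxcl3: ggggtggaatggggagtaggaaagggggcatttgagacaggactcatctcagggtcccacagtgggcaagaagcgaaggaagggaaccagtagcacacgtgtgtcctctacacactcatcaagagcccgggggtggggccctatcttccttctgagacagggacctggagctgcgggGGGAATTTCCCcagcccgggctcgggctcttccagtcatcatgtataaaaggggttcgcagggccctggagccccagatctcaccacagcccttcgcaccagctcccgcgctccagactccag
Cxcl10: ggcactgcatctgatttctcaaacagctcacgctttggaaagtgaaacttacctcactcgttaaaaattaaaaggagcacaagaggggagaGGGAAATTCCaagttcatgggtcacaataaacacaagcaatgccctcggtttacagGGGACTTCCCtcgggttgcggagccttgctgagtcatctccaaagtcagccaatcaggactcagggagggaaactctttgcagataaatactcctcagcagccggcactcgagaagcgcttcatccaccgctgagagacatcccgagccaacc

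The windows of *Cxcl1*, *Cxcl2* and *Cxcl3* each held GGGAATTTCCC, in which 2 matches overlap, and *Cxcl10* held 2 separate matches. Windows were used for 37 of the 52 genes, 47 windows in all. Any window on chromosome 18, where *Tslp* lies, was left out of the 47 but not out of the 32851 below. *Cxcl5* was not among the 37, and the window of *Cxcl15* held no consensus match. On either strand, 9 of the 47 (19.1%) held the NF-κB consensus, against 4.51% of all 32851 promoter windows of that length. The genes were *Ccl20*, *Ccl27a*, *Ccl9*, *Csf1*, *Cxcl1*, *Cxcl10*, *Cxcl2*, *Cxcl3* and *Il6*. A looser form that contains it, GGGNNNNNCC, was in 57.4% of the windows against 50.8% of all. The AP-1 motif TGANTCA was in 25.5% against 7.81%, the interferon response motif GAAANNGAAA in 6.38% (*Ccl19*, *Cxcl10*, *Cxcl14*) against 3.44%, and TATAAA in 34.0% against 13.6%. Genes of one cluster share sequence and several genes have more than one window, so the windows are not independent. A match is a description of the letters and not of a bound site. *Cxcl1* had 185 reads over the 4 libraries, *Cxcl10* 526, *Cxcl3* 11 and *Cxcl2* none.

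To ask whether the genes differed between genotypes, each of 11524 genes with a mean of at least 0.5 FPKM was compared on log2(FPKM + 0.5) with limma, and a gene was called where its adjusted p was under 0.01 and its log2 fold change was 1 or more in size. Fold changes on this scale understate those of low genes. *Cxcl1* and *Cxcl5*, 2 of the 19 tested genes, were called higher in TG, where 0.607% of all tested genes were. None was called lower, against 0.469% of all genes. At an adjusted p under 0.05, 5 were higher (*Cxcl1*, *Cxcl5*, *Ccl17*, *Cxcl14* and *Cxcl12*), against 2.59% of all genes, and none was lower, against 1.54%. At an unadjusted p under 0.05, 8 were higher, against 12.7% of all genes, and 1 was lower, against 6.88%. Both TG libraries lay above both WT libraries for 12 of the 19, against 30.2% of all genes, and below for 2 (*Ccl7* and *Ccl25*), against 20.3%. The log2 fold change was above 0 for 16 of the 19, with a median of 0.67, beside a median of 0.071 over all tested genes, 57.5% of which were above 0. *Cxcl14* and *Il11* reached the filter only through their TG libraries, so these counts describe the genes and are not a test of them as a group.

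**Figure D1:**
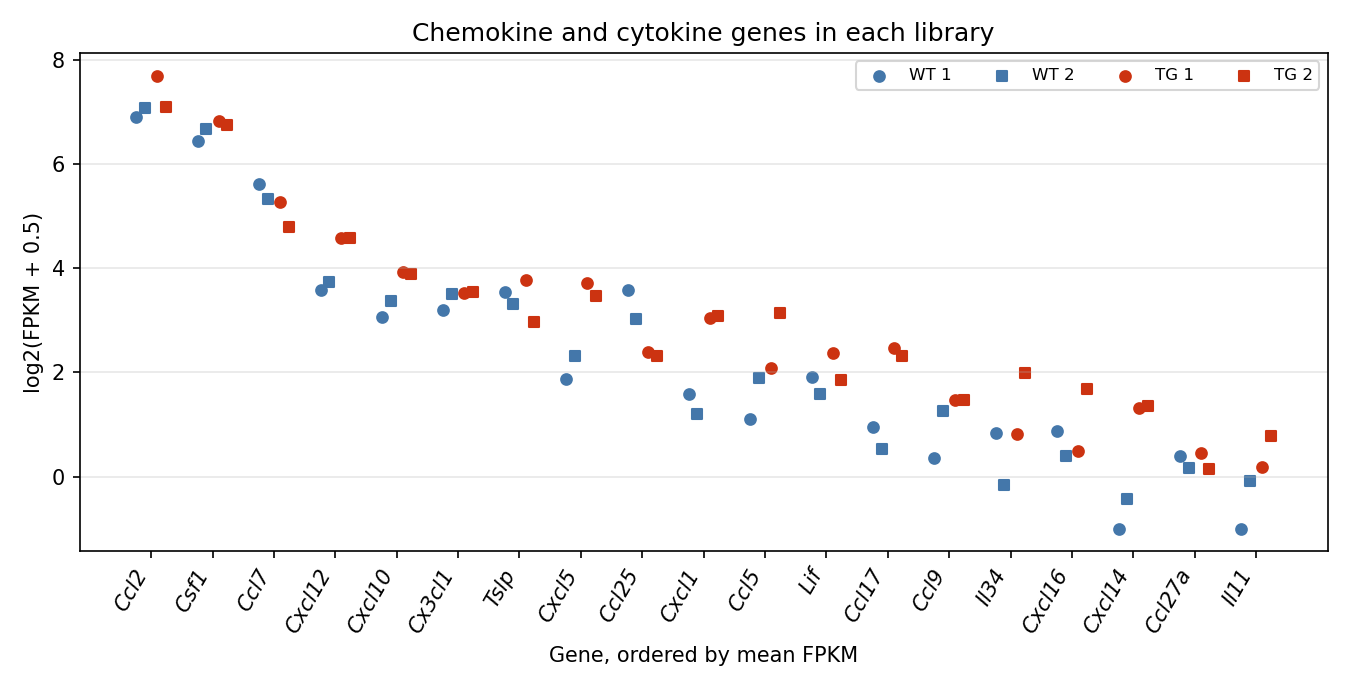
Each tested gene in each library, as log2(FPKM + 0.5) on the vertical axis, with WT in blue, TG in red, circles for the first and squares for the second library of a genotype. *Ccl2*, *Csf1* and *Ccl7* stand above the rest in every library, and the gap between genotypes is widest for *Cxcl14*, *Cxcl1*, *Ccl17* and *Cxcl5*.

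The neutrophil-attracting ELR chemokines held both calls. *Cxcl1*, the mouse counterpart of the GRO chemokines, was at 2.51 and 1.79 FPKM in WT and at 7.76 and 8.02 FPKM in TG. The means were 2.15 ± 0.506 and 7.89 ± 0.187 FPKM (SD, n = 2), and no WT library came near a TG library. Its log2 fold change was 1.68 ± 0.26 (SE), with an adjusted p of 0.00665. *Cxcl5*, also a Cxcr2 ligand, was at 3.15 and 4.49 FPKM in WT and at 12.6 and 10.6 FPKM in TG. Its log2 fold change was 1.497 ± 0.245, with an adjusted p of 0.00902. The reads behind these levels were 19, 21, 74 and 71 for *Cxcl1* and 45, 99, 227 and 176 for *Cxcl5*, in the order WT 1, WT 2, TG 1, TG 2.

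The direction of both held in all 14 alternative settings, with log2 fold changes of 1.48 to 1.87 for *Cxcl1* and 1.27 to 1.72 for *Cxcl5*, but each was called in only 4 of them. Leaving out any 1 library ended both calls. The adjusted p of *Cxcl1* was then 0.0486 without WT 1, 0.110 without WT 2, 0.0240 without TG 1 and 0.0248 without TG 2, and that of *Cxcl5* was 0.0776, 0.0695, 0.0441 and 0.0175. With the voom test on whole reads, the adjusted p was 0.0565 for *Cxcl1* and 0.00799 for *Cxcl5*. The other ELR genes gave little to compare. *Cxcl3* had 4 reads in WT 1, 7 in TG 2 and none in WT 2 or TG 1. *Cxcl2* and *Cxcl15* were at 0 throughout, which does not show that their RNA was absent.

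These genes lie together on chromosome 5. In GRCm38, *Cxcl5* spans 90759298 to 90761625 and *Cxcl1* 90891245 to 90893121, a gap of 129.6 kb in which *Cxcl3* and *Cxcl15* also lie, and *Cxcl2* begins 10.8 kb beyond *Cxcl1*. The called genes were thus not next to each other, and the listed chemokine genes between them had few or no reads. *Ppbp* and *Pf4*, platelet chemokines in the same interval that are not among the 52, were at 0, 0.586, 1.80 and 0 FPKM and at 0 throughout.

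**Figure D2:**
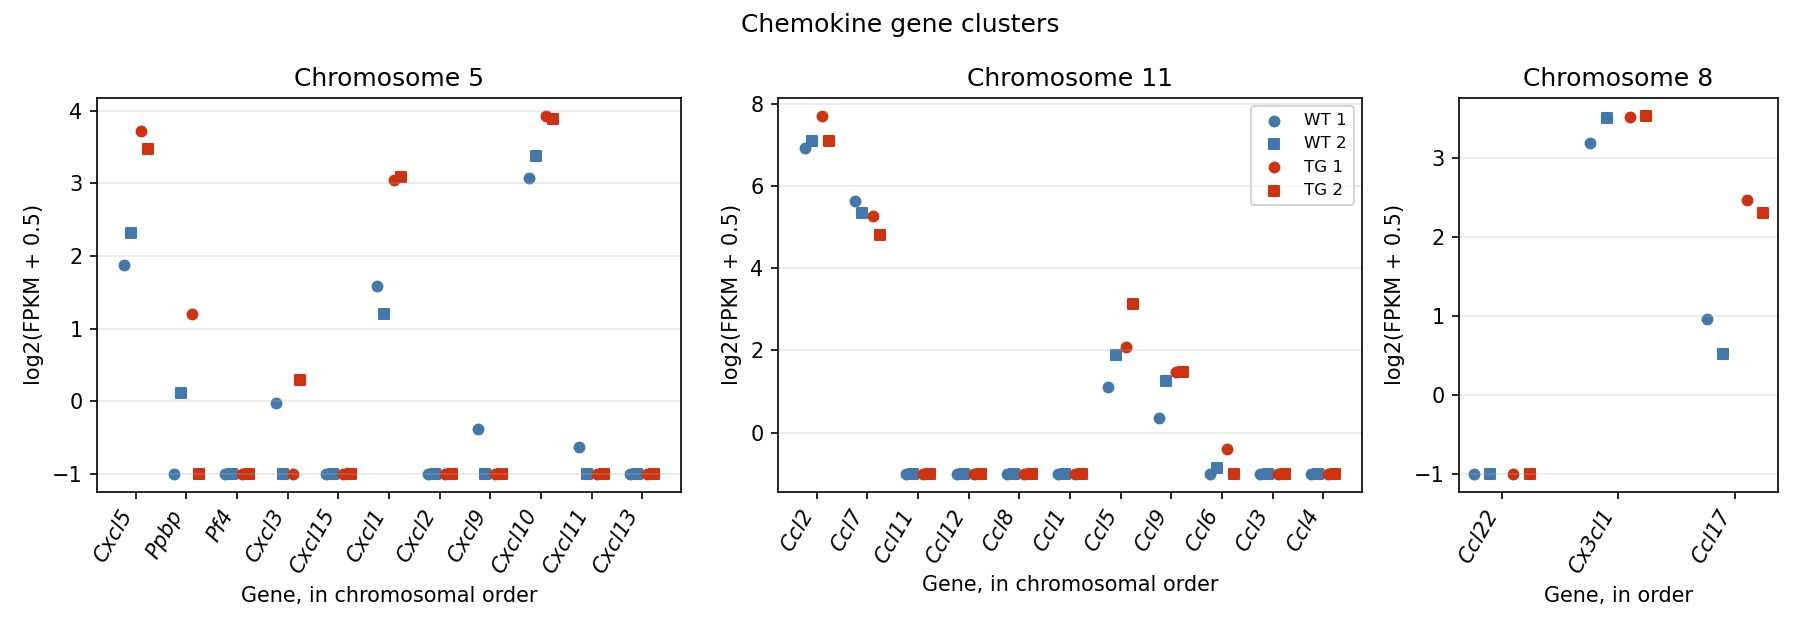
Genes of 3 chemokine clusters in chromosomal order, with log2(FPKM + 0.5) per library on the vertical axis (WT blue, TG red), so that a gene listed at 0 sits at -1. On chromosome 5 only *Cxcl5*, *Cxcl1* and *Cxcl10* were above 0 in all 4 libraries, on chromosome 11 *Ccl2*, *Ccl7*, *Ccl5* and *Ccl9*, and on chromosome 8 *Cx3cl1* and *Ccl17*.

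Of the interferon-induced chemokines, *Cxcl10* lies 1.45 Mb beyond *Cxcl1*. *Cxcl10*, which attracts activated T cells, was at 7.89 and 9.91 FPKM in WT and at 14.7 and 14.3 FPKM in TG. The groups did not overlap, but the log2 fold change of 0.68 ± 0.21 had an adjusted p of 0.104. *Cxcl9*, in the same family, had 7 reads in WT 1 and none elsewhere. *Cxcl11* had 2 reads in WT 1 and none elsewhere.

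Of the homeostatic CXC chemokines, *Cxcl12*, the stromal factor that retains hematopoietic cells through Cxcr4, was the most abundant. It was at 11.5 and 12.8 FPKM in WT and at 23.5 and 23.3 FPKM in TG, with the libraries of each genotype close together. The log2 fold change was 0.92 ± 0.19 (adjusted p 0.0253), short of both limits of the call, and it stayed between 0.848 and 0.995 over the alternatives. It rested on 5849 reads. It passed 0.05 in 7 of 14 alternatives, with an adjusted p of 0.00170 with voom, 0.0763 with the replicate block, 0.0834 without the variance trend and 0.0955 with all genes above 0. Without 1 library it was 0.111 (WT 1), 0.135 (WT 2), 0.0977 (TG 1) and 0.0870 (TG 2). *Cxcl14*, a chemokine of skin and connective tissue, went from 0 and 0.244 FPKM in WT to 2.00 and 2.05 FPKM in TG. Its reads were 0, 6, 40 and 38, a TG to WT ratio of 13.6 relative to the library totals (95% interval 5.99 to 38.3, counting error only). These reads rest on a choice of gene length made in working out whole reads, which the interval does not cover. The log2 fold change of 2.05 ± 0.42 had an adjusted p of 0.0239, which was 0.0595 with voom, 0.109 without WT 1 and 0.111 without WT 2, and it passed 0.05 in 8 of 14 alternatives.

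*Cxcl16*, which is made as a membrane-bound ligand of Cxcr6, showed no separation, at 1.33 and 0.821 FPKM in WT and at 0.907 and 2.72 FPKM in TG (log2 fold change 0.45 ± 0.44, adjusted p 0.630). *Cx3cl1* (fractalkine), the other membrane-bound chemokine, was nearly level at 8.64, 10.9, 10.98 and 11.1 FPKM (log2 fold change 0.18 ± 0.21, adjusted p 0.699). *Cxcl17* had 1 read in WT 1, and *Cxcl13*, the B cell attractant, was at 0.

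By FPKM, most chemokine mRNA of these cells was *Ccl2*, the main attractant of monocytes. It was at 119.8 and 134.8 FPKM in WT and at 207.4 and 135.9 FPKM in TG, and made up between 53.1% and 61.9% of the summed FPKM of the 39 chemokine rows. TG 1 stood apart and TG 2 lay beside WT 2, so that the log2 fold change of 0.40 ± 0.22 had an adjusted p of 0.347. *Ccl7*, 8.26 kb away on chromosome 11 and an attractant of the same cells, was at 48.8 and 39.7 FPKM in WT and at 38.3 and 27.3 FPKM in TG. Its log2 fold change was -0.44 ± 0.21 (adjusted p 0.287), opposite in sign to that of *Ccl2*. Neither passed the test, and the difference between the genes was not tested. The other genes of this group, *Ccl8*, *Ccl11*, *Ccl12* and *Ccl1*, were at 0. The summed chemokine FPKM came to 220.8 and 229.8 for the WT libraries and to 335.3 and 256.1 for the TG libraries, with TG 1 highest as for *Ccl2*.

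Farther along chromosome 11, *Ccl5*, which attracts T cells, rested on 6, 18, 17 and 35 reads. It was at 1.66 and 3.22 FPKM in WT and at 3.73 and 8.28 FPKM in TG, and the TG libraries differed from each other by 1.05 on the log2 scale, close to the fold change between genotypes (1.11 ± 0.38, adjusted p 0.142). *Ccl9* was at 0.776, 1.89, 2.26 and 2.28 FPKM (0.67 ± 0.37, adjusted p 0.365), and its neighbor *Ccl6* had 1 read in WT 2 and 4 in TG 1. Both are myeloid attractants of the mouse. *Ccl3* and *Ccl4* were at 0.

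*Ccl17*, which attracts type 2 T cells through Ccr4, was at 1.45 and 0.936 FPKM in WT and at 5.05 and 4.46 FPKM in TG. It rested on 5, 5, 22 and 18 reads. The log2 fold change of 1.65 ± 0.30 had an adjusted p of 0.0148, and of 0.309 with voom, the widest gap between the tests among the 5 genes under 0.05. It passed 0.05 in 8 of 14 alternatives, and was at 0.0630 without WT 1, 0.164 without WT 2 and 0.0542 without TG 1. Its neighbor *Cx3cl1*, 27.0 kb away on chromosome 8, was level as given above, and *Ccl22*, the other Ccr4 ligand, was at 0.

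*Ccl25*, the Ccr9 ligand of thymus and intestine, had the lowest log2 fold change of the 19. It was at 11.5 and 7.65 FPKM in WT and at 4.77 and 4.50 FPKM in TG, which did not overlap (-0.94 ± 0.25, adjusted p 0.0638). The adjusted p over the alternatives ran from 0.0530 to 0.291, so that *Ccl25* passed in none of them. *Ccl27a*, a skin attractant of T cells, was at 0.820, 0.619, 0.868 and 0.614 FPKM (0.02 ± 0.41, adjusted p 0.984). Its coding sequence is nearly shared with *Ccl27b*, listed at 0, and counting can split reads between such copies. *Ccl28* had 3 reads in TG 1. The remaining CC genes, *Ccl19*, *Ccl20*, *Ccl24*, *Ccl26* and the *Ccl21* copies, were at 0.

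**Figure D3:**
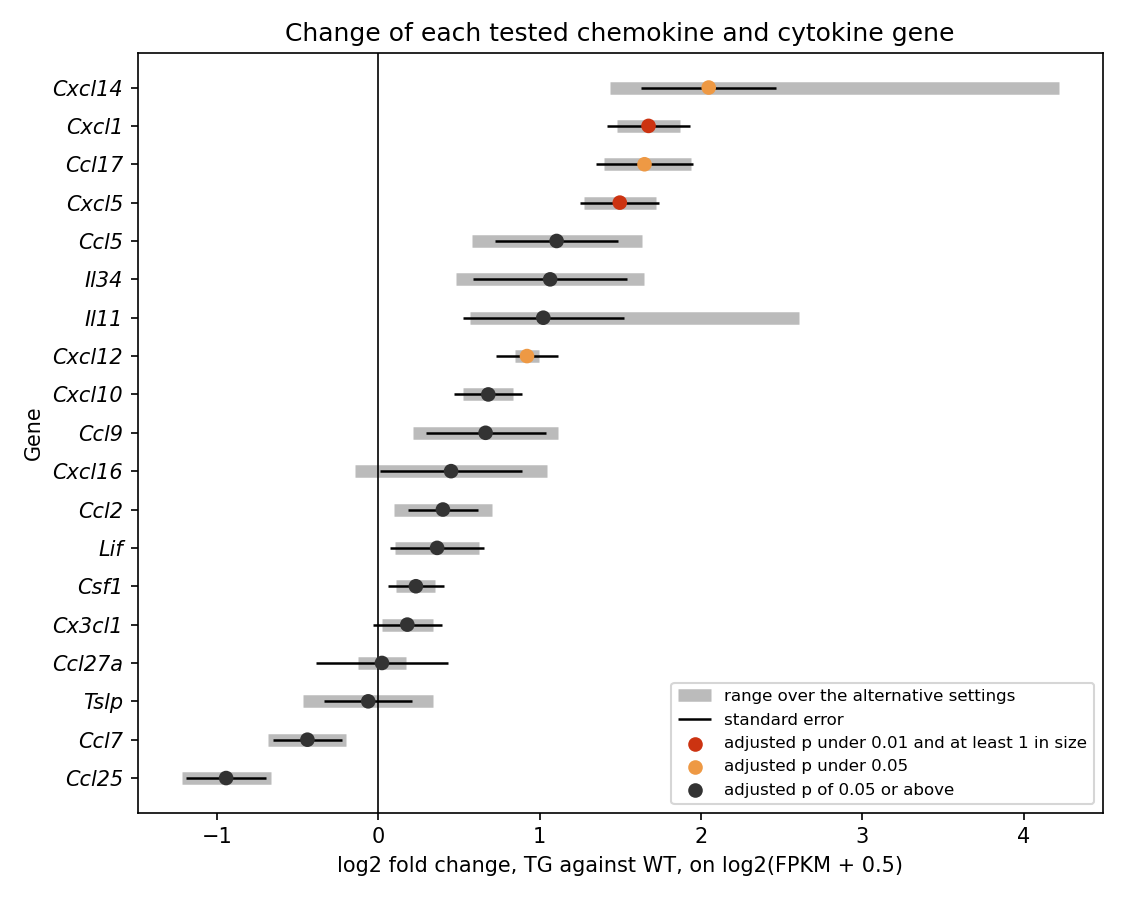
Log2 fold change of each of the 19 tested genes on the horizontal axis (TG against WT), with its standard error as a thin line and the range over the alternative settings as a gray bar. *Cxcl1* and *Cxcl5* are the called genes, 16 of the 19 points lie above 0, and the bars of *Cxcl16*, *Ccl27a* and *Tslp* cross 0.

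Among the cytokines, the macrophage growth factor *Csf1* had the highest level, at 86.4 and 101.6 FPKM in WT and at 113.4 and 107.0 FPKM in TG. Its 20688 reads make it the deepest of the 52, and its log2 fold change was 0.23 ± 0.18 (adjusted p 0.520). *Il34*, which binds the same receptor, was at 1.30 and 0.399 FPKM in WT and at 1.28 and 3.49 FPKM in TG, so that TG 1 lay inside the WT range (1.07 ± 0.48, adjusted p 0.252). *Csf2*, which drives granulocyte and macrophage growth, had 9 reads in TG 2 and none elsewhere. *Csf3*, the granulocyte factor, had 1 read in WT 2.

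The IL-6 family cytokines, which signal through Il6st and STAT3, were low. *Lif* was at 3.25 and 2.49 FPKM in WT and at 4.66 and 3.11 FPKM in TG, with overlap (0.36 ± 0.29, adjusted p 0.551). *Il11*, a fibrogenic cytokine, was at 0, 0.441, 0.632 and 1.22 FPKM, from 0, 12, 14 and 25 reads. The read ratio of TG to WT was 3.41 (1.75 to 7.15, counting error only), and the log2 fold change was 1.02 ± 0.50 (adjusted p 0.292). *Il6* itself had 4 reads in TG 1 and none elsewhere.

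In the IL-1 family, the receptor antagonist *Il1rn* was the member with the most reads. It had 0, 4, 19 and 20 reads, or 0, 0.107, 0.627 and 0.711 FPKM, a ratio of 10.2 (3.69 to 39.4). Its mean was below the level for testing, so it has no adjusted p. *Il1a* had 4 reads in TG 2, and *Il1b* and *Il33* were at 0. *Tnf* was at 0 as well. *Tslp*, the epithelial and stromal alarmin, was at 11.2 and 9.52 FPKM in WT and at 13.2 and 7.33 FPKM in TG, and the TG libraries lay on either side of WT (-0.06 ± 0.27, adjusted p 0.929).

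The receptors and signaling genes were then compared by lists. Over 76 distinct tested genes of 6 lists, 4 were called higher and none lower, where 0.607% and 0.469% of all tested genes were. Their median log2 fold change was 0.23, beside 0.071 over all tested genes. *Mmp3* and *Mmp13* reached the filter only through TG, and *Tnfsf11* only through WT. The counts and the median therefore describe these lists and are not a test of them. Of 23 chemokine receptors, 13 were at 0 and only the scavenger receptor *Ackr3* was tested, at 1.51 and 2.14 FPKM in WT and at 1.78 and 0.958 FPKM in TG. Of 18 cytokine receptors 11 were tested. *Il1rl1*, the IL-33 receptor, was called, at 36.5 and 43.8 FPKM in WT and at 100.4 and 91.7 FPKM in TG (log2 fold change 1.25 ± 0.18, adjusted p 0.00492), while its ligand *Il33* was at 0. The shared IL-6 family receptor *Il6st* (34.5, 39.9, 50.7 and 44.6 FPKM) and the TNF receptor *Tnfrsf1a* (35.5, 46.2, 53.1 and 61.2 FPKM) were the other abundant ones, and neither passed 0.05.

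Of 29 tested NF-κB and AP-1 pathway genes, 1 was called higher, against 0.607% of all tested genes. *Fosl1*, an AP-1 subunit, was at 24.9 and 28.1 FPKM in WT and at 60.9 and 71.3 FPKM in TG (1.30 ± 0.18, adjusted p 0.00435). The most abundant others were *Jund*, *Rela* and *Junb*. *Rela*, the main activating NF-κB subunit, had a log2 fold change of -0.16. *Junb* was at 67.7, 40.7, 94.7 and 99.8 FPKM (0.88), and *Jund* at 61.9, 94.4, 127.4 and 71.4 FPKM (0.32). None of these 3 passed 0.05.

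Among 13 tested NF-κB targets other than the cytokines, 1 was called higher (0.607% of all genes) and 4 were higher at an adjusted p under 0.05 (2.59% of all genes). The called gene *Cebpb*, a transcription factor of inflammatory genes, was at 8.95 and 8.03 FPKM in WT and at 24.2 and 20.8 FPKM in TG (1.35 ± 0.20, adjusted p 0.00561). The others under 0.05, named after their values were seen, were the prostaglandin enzymes *Ptgs2* (0.85, adjusted p 0.0463) and *Ptges* (1.52, adjusted p 0.0337) and *Cebpd* (1.33, adjusted p 0.0481). *Ptgs2* was also the most abundant of the list, ahead of *Ier3* and *Vcam1*, which had log2 fold changes of 0.45 and 0.05. Of 11 tested genes of a list for the control of cytokine mRNA decay none was called, and none passed 0.05. Not all of them are decay factors themselves, *Dusp1* and *Elavl1* among these. The most abundant were *Dusp1* (0.56), *Khsrp* (-0.51) and *Zfp36l2* (-0.36).

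Of 15 tested genes of a list for the STAT3 and IL-6 family response, 1 was called higher, against 0.607% of all tested genes. The list also holds the signaling genes *Stat3*, *Jak1*, *Jak2* and *Tyk2*, so its counts are not a readout of the response alone. *Socs1*, which restrains cytokine signaling, was at 0.355 and 1.03 FPKM in WT and at 5.14 and 4.25 FPKM in TG (2.18 ± 0.36, adjusted p 0.00935). *Pim3* (1.27, adjusted p 0.0235), named after its values were seen, and *Cebpd* also passed 0.05. With *Socs1*, 3 genes of the list were higher at that level, against 2.59% of all tested genes. The abundant *Jak1* and *Pim1* had log2 fold changes of -0.24 and 0.13. Of the genes in these lists, 1 was called without TG 1, and none without WT 1, without WT 2 or without TG 2.

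**Figure D4:**
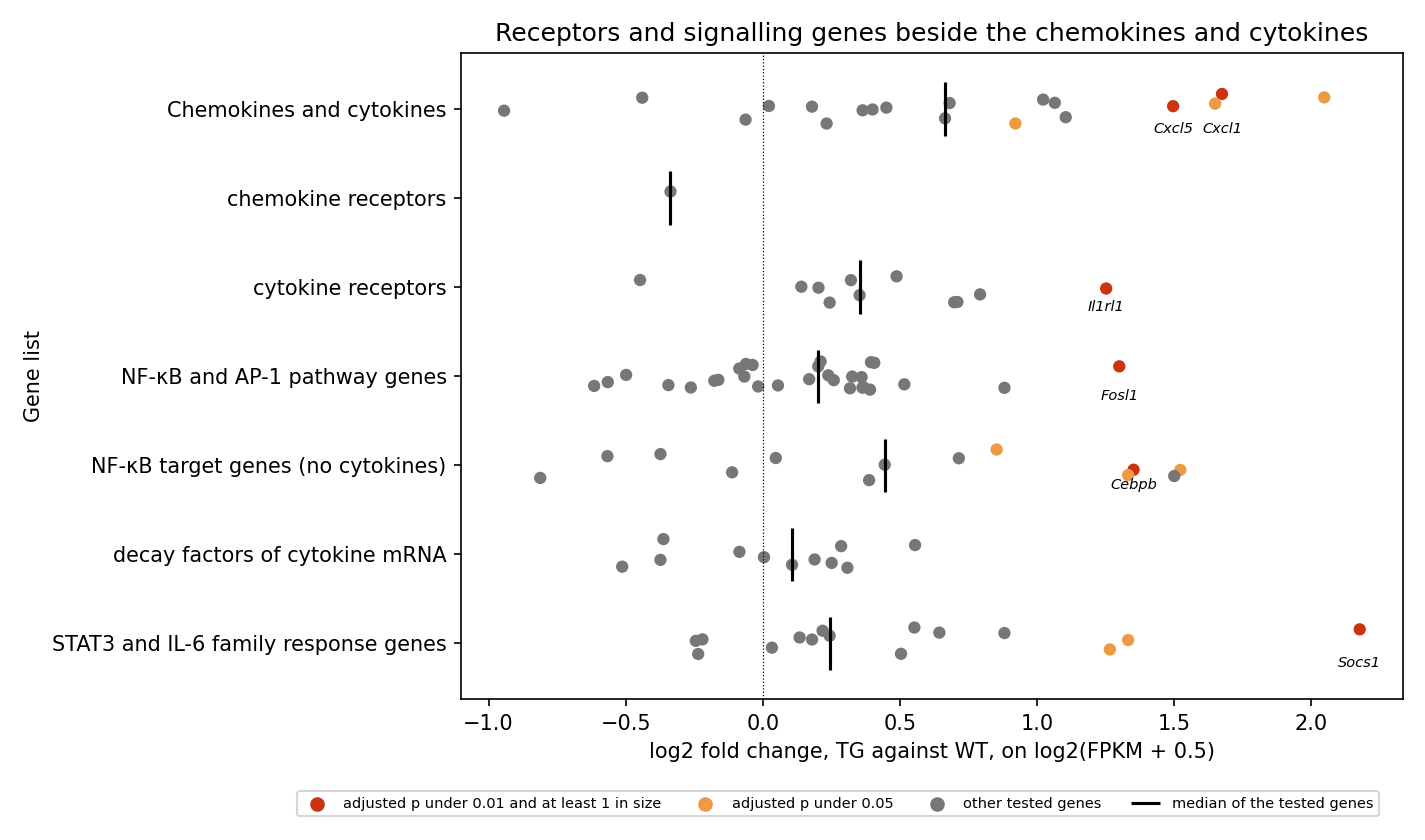
Log2 fold change (horizontal axis, TG against WT) of every tested gene of the chemokine and cytokine genes and of 6 related lists, 1 point per gene, with the median of each as a black line. The called genes are named, and all of them lie above 0.

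The cells were checked with marker lists. *Col1a1*, *Thy1*, *Vim* and *Fn1* were abundant, but the fibroblast markers *Lum* and *Dcn* were at 0 and at up to 0.878 FPKM. Of 12 leukocyte markers 7 were at 0, *Ptprc* among them, and the list summed to between 5.21 and 13.2 FPKM, nearly all of it *Cd68*. The endothelial list summed to at most 0.567 FPKM and the keratinocyte list to at most 3.15 FPKM. The smooth muscle list summed to 8655 and 8918 FPKM in WT and to 4060 and 4745 FPKM in TG, with *Cnn1* called lower (-1.78 ± 0.20, adjusted p 0.00114) and *Acta2* at an adjusted p of 0.0139. Nearly all of that sum was *Acta2*, *Tagln* and *Cnn1*. *Myh11* and *Des*, of the same list, reached at most 0.376 and 0.435 FPKM in any library. Of the 8 tested fibroblast markers, both TG libraries lay below both WT libraries for 6, against 20.3% of all tested genes. They lay above for 2, against 30.2%. These were *Vim* (0.15) and *Pdgfra* (1.08), neither of which passed 0.05, and *Pdgfra* reached the filter only through its TG libraries. *Col1a1* and *Pdgfrb* were lower at adjusted p values of 0.0491 and 0.0165, while *Col1a2*, *Col3a1*, *Thy1* and *Fn1* did not pass 0.05. Of these markers only *Cnn1* was thus called, while *Acta2*, *Col1a1* and *Pdgfrb* passed an adjusted p of 0.05 without a call. The part of the marker genes in the chemokine levels was not tested. In such bulk samples, fewer cells of a type and less RNA per cell cannot be told apart.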

How the data were processed

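Libraries of polyA RNA from WT and TG fibroblasts, 2 per genotype, were strand-specific and sequenced paired-end on a NextSeq500. The authors used Rsubread for alignment to mm10 and for counting, and deposited FPKM, the only values given. DESeq is named in the submitters' notes for their test. Tool versions and the strand setting of the counting were not given in the sources used here, so reads of overlapping genes may not be separable. Groups were taken from the sample titles.

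The deposited FPKM were tested as log2(FPKM + 0.5) with limma 3.58.1 in R 4.3.3 (lmFit, eBayes with a trend), for 11524 of 23924 genes with a mean of at least 0.5 FPKM, with Benjamini-Hochberg adjustment over all of them. The threshold pair (adjusted p under 0.01, log2 fold change of at least 1) was that of the study. With 2 libraries against 2, an exact permutation test of a single gene cannot go below p = 0.333 (two-sided), so none was run. FPKM steps gave whole reads. The library total was supported by 776 genes, and reads on listed genes came to between 99.0% and 99.1% of it. The weight on gene length in this step was set after the totals were seen, because other weights made the listed genes exceed the library total. Reads of *Il6*, *Cxcl14* and *Csf2* rest on that weight. Intervals (Clopper-Pearson, 95%) cover counting error only. They were computed only for genes with a library without reads and at least 3 reads in WT. The deepest library had 1.55 times the reads of the shallowest.

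Every gene with a mean of at least 0.5 FPKM is named with its 4 values, those below it with reads, and of each related list the called genes and the 3 most abundant. The genes and lists were chosen with earlier results of these data known. Alternatives changed the pseudocount, the filter, the variance trend, the scaling, the block, the library set and the test (voom on reads). The tests were tried on simulated data. Motifs were searched on both strands of RefSeq promoter windows, 5 motifs in all.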

Additional observations from a re-analysis of the deposited data

How the results depend on the processing

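The 19 tested genes were recomputed under 14 alternatives, of which voom with a replicate block was added after seeing the data. Of 264 gene values, 236 kept direction and side of the threshold, 20 lost the call and 8 reversed sign. The reversed values were -0.0184, -0.12, -0.10, -0.13 and -0.0289 for *Ccl27a* (upper-quartile scaling, quantile normalization, without WT 2, without TG 1, voom with replicate block), -0.15 for *Cxcl16* without TG 2, and 0.05 and 0.34 for *Tslp* without WT 1 and without TG 2. Without 1 library, *Ccl27a* ranged from -0.13 to 0.17, *Cxcl16* from -0.15 to 1.05 and *Tslp* from -0.46 to 0.34. None of these genes was called.

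The count of genes called higher, 2, was 1 with a pseudocount of 0.1, 1 with upper-quartile scaling, 1 with voom, 1 with voom and replicate block, 0 with all genes above 0, 0 without the variance trend, 0 with quantile normalization, 0 with the replicate block, 0 to 0 without 1 library, and 4 at an adjusted p under 0.05 with the same size limit. No gene was called lower under any of them. The 5 genes past 0.05 became 0 with all genes above 0, 3 with the replicate block, 2 with voom, 2 with voom and replicate block, and 0 to 4 without 1 library. The lowest counts were 1 without WT 1 and 0 without WT 2. The 4 called genes of the related lists became 0 with all genes above 0, 0 without the trend, 2 with quantile normalization, 0 with the replicate block and 0 to 1 without 1 library. The median log2 fold change of 0.67 became 0.37 with all genes above 0, where more genes with few reads enter, and was 0.53 to 0.67 without 1 library. The causes of these changes were not tested.

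Over all genes, 70 were called higher and 54 lower, and 47 and 55 with quantile normalization. Other settings moved these counts by over 1.5 times: 0 higher and 1 lower with all genes above 0, 3 and 6 without the trend, 12 and 8 with the replicate block, 0 and 1 without WT 1, 7 and 2 without WT 2, 125 and 154 with voom, and 122 and 148 with voom and replicate block. Deviations of same-numbered libraries from their genotype means did not go together over 11524 genes (r = -0.0276), so the numbers are not shown to pair the libraries. Leaving out a library leaves a genotype with 1, assumed to vary like the other. Genes with under 10 reads in a genotype, such as *Cxcl14* and *Il1rn* in WT, may miss all but large differences at this depth. No limit was computed.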

Other observations

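Among the low genes, TG 2 held the largest share of the reads of *Il34* (66 of 123), *Cxcl16* (50 of 109), *Csf2* (9 of 9) and *Il11* (25 of 51), and *Ccl5* had 35 of its 76 reads there. The other TG library did not share these levels, at 26, 18, 0, 14 and 17 reads. By contrast *Cxcl1*, *Cxcl14*, *Cxcl12* and *Ccl9* had nearly equal FPKM in the TG libraries. *Il34* is a ligand of the macrophage receptor Csf1r, which was listed at 0, 0.128, 0 and 0.0243 FPKM. These genes were picked after their values were seen, and no test was made of the difference between libraries.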
